A study of Mus musculus with 50 samples.

Results

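The respiratory chain and the ATP synthase are described here through the array probes whose platform gene symbol is Cyc1, Cycs, Sdha, Sdhb, Sdhc or Sdhd, or starts with Nduf, Uqcr, Cox4 to Cox8 or Atp5. The rule finds 106 probes for 78 genes among the 20355 probes and 9930 named genes of the array, and no probe for Cycs, the mobile electron carrier cytochrome c. Atp5h, also named Atp5pd, was left out by the rule. Its 3 probes disagreed in testis, at 0.24 ± 0.18 (adjusted p = 0.0232, limma), -0.10 ± 0.42 (adjusted p = 0.593) and -1.48 ± 1.26 (adjusted p = 0.0276; log2 ratios, SD, n = 10). Sorted by the complex they belong to, the members hold 42 probes (31 genes) of complex I, 4 (4 genes) of complex II, 11 (8 genes) of complex III, 23 (16 genes) of complex IV and 21 (14 genes) of complex V. The last 5 probes, for Ndufaf1, Ndufaf3, Ndufaf5, Ndufaf6 and Ndufaf7, match the rule by name but encode assembly factors of complex I, which are not part of the finished enzyme, and are counted apart.

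Wobbler (wr/wr) mice are homozygous for a mutation in Vps54 that leads to loss of motor neurons and to malformed sperm. RNA of their organs was hybridised on 2-colour arrays against 1 pool of wild-type RNA of the same organ. The wr/wr testis RNAs came from 10 single mice on 4 arrays each. The wr/wr spinal cord RNAs were pool1 and pool2, of 4 mice each and on 4 arrays each, while mouse 5995 gave a cord RNA of its own, on 2 arrays. All 9 cord mice are among the 10 testis mice, and age and genetic background are not given in the labels. Each pool held 10 wild-type mice by the sample labels and 6 by the labelling protocol, which leaves the number unsettled. With 1 pool per organ, the spread among wild-type animals is not part of any test below. In every RNA, the wr/wr sample was in Cy5 on one set of arrays and in Cy3 on an equal number.

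Each value is a log2 ratio of wr/wr over wild type, so that 0 means an equal signal in both. No label or header says which way the deposited ratios run. This reading was assumed on every array. If the ratios ran as wild type over wr/wr, all signs given here would turn over, and which of these holds was not tested. The microglia markers bear only on a further reading, as Cy5 over Cy3. In the cord, microglia markers had medians from 0.62 to 0.68 over the 3 RNAs with the mutant in Cy5 and from 0.70 to 0.75 with it in Cy3. A reading as Cy5 over Cy3 would bring the median of those markers to 0.01. The table holds ratios and no signal levels, so the labelled organs could not be checked against marker levels, and genes could not be ranked by abundance. The organs were profiled in bulk, where fewer cells of a type and less RNA per cell cannot be told apart.

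The respiratory chain sits in the inner mitochondrial membrane. Complex I and complex II pass electrons from NADH and succinate to ubiquinone, complex III passes them on to cytochrome c, and complex IV hands them to oxygen. Complexes I, III and IV pump protons, and complex V, the ATP synthase, lets the protons back and makes ATP. All members here are encoded in the nucleus; the array had no named probe for the subunits that mitochondrial DNA encodes. Several subunits of complex IV exist as isoforms made mainly in heart and skeletal muscle or in testis.

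Promoters of such genes often hold sites of the nuclear respiratory factor NRF1. Of the 78 member genes, 64 had a RefSeq promoter window (build GRCm38.p6, 250 bases before to 50 after the start, 69 windows). The NRF1 core GCATGCGC, searched on both strands, occurred in a window of 14.1% of the member genes and of 5.17% of all 8005 genes on the array that had such a window. The shares were 15.6% against 4.93% for a YY1 core (AAGATGGC), 16 of 64 member genes against 17.9% of all for an ETS core (CCGGAAG), 10.9% against 4.33% for an ERR half-site (AAGGTCA) and 46.9% against 42.8% for a CCAAT box. Matches of different motifs overlapped in 0 member windows, while the NRF1 core overlapped its own reverse complement in 4. The 9 member genes with an NRF1 core are shown because they tie letters to the ratios given below. Each line holds 30 bases on the gene's strand, 5′ to 3′, with the core in capitals.
Uqcrc1 (chr9:108936668-108936697, + strand): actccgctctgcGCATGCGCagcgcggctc
Uqcr11 (chr10:80406807-80406836, - strand): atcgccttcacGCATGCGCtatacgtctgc
Ndufa6 (chr15:82354356-82354385, - strand): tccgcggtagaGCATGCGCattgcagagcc
Ndufa8 (chr2:36049328-36049357, - strand): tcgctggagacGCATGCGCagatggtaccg
Sdhb (chr4:140961206-140961235, + strand): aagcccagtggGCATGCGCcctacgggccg
Cox6a1 (chr5:115349100-115349129, - strand): aggaacggggcGCATGCGCgctctcgctcc
Atp5k (chr5:108434429-108434458, - strand): ttcactgcggcGCATGCGCctttctggctt
Atp5l (chr9:44920963-44920992, - strand): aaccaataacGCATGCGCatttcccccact
Ndufaf5 (chr2:140170653-140170682, + strand): gtcccgttggcGCATGCGCctaatagaaac
The core begins 8 bases before the start of Ndufa8 and 4 before that of Uqcr11, and 32 bases after the start of Uqcrc1. A match is a string of letters and not a measured binding site. These 9 genes did not share 1 ratio: in testis Ndufa6 was at 0.24, Uqcrc1 at 0.18 and Cox6a1 at -0.03 and -0.02 (2 probes).

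In the wr/wr testis the members lay above the wild-type pool by a small amount. Of 106 probes, 46 rose and 0 fell at an adjusted p under 0.05 (limma, Benjamini-Hochberg over 20218 probes), 43.4%, against 7.28% of all probes called higher and 5.06% called lower. The 46 called probes belong to 37 genes, and their means ran from 0.11 to 0.35, which is 1.08-fold to 1.27-fold. The median over the 106 members was 0.17 (1.12-fold), beside -0.01 over all probes. A mean above 0 was found for 90 of the 106. In at least 9 mice 36 members (34.0%) were above 0, against 10.1% of all probes, and 12 of the 46 called probes were above 0 in every mouse.

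The mice differed among themselves. The median over the members was 0.33 in mouse 5907, 0.31 in 5995, 0.23 in 6493, 0.20 in 6069, 0.16 in 6163 and in 6065, 0.15 in 5906 and 0.14 in 6335. It was -0.00 in mouse 5905 and -0.05 in mouse 5997. So 8 of 10 mice lay above 0 and 2 at or below it, while the median over all probes stayed between -0.015 and 0.016 in each. Both of the lowest mice had dye orientations that disagreed. Over all probes the Cy5 and Cy3 means correlated at -0.22 in 5905 and -0.11 in 5997 (Spearman rho). The same held for 6065 (-0.31), and the other mice were above 0. Mouse 5997 gave the lowest ratio for 51 of the 106 probes, and mice 5907 and 5995 the highest for 32 each.

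**Figure D1:**
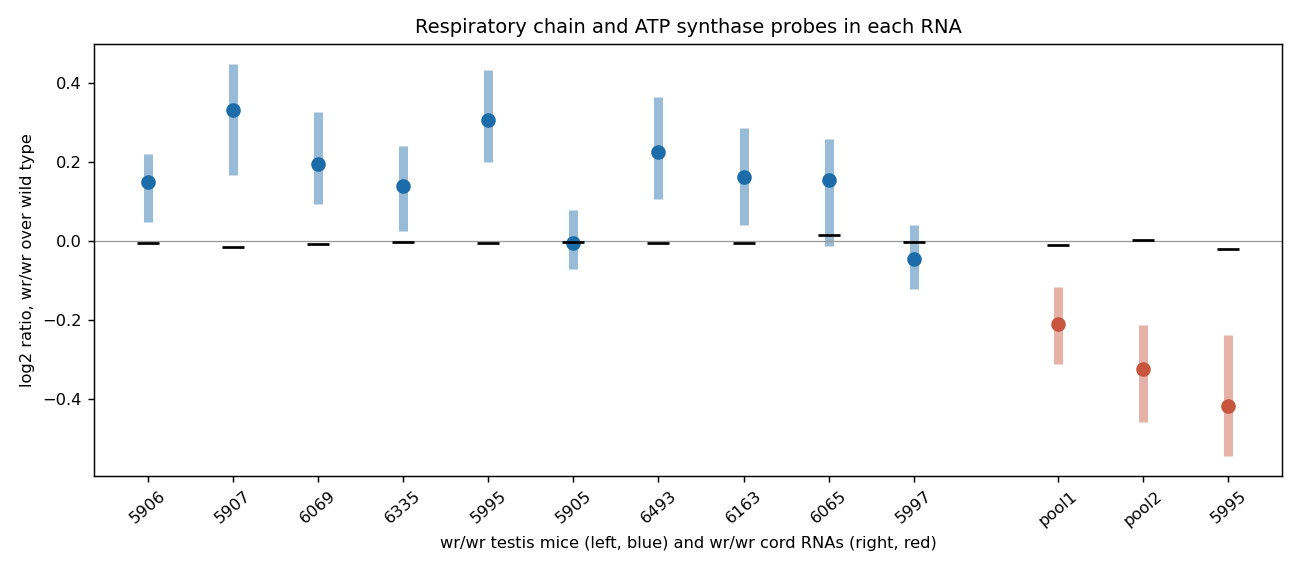
Log2 ratio of wr/wr over wild type (vertical axis) in each RNA, with the 10 testis mice in blue on the left and the 3 cord RNAs in red on the right; points are medians over the members with values, thick bars span the quartiles and black dashes are medians over all probes. Testis medians run from -0.05 to 0.33 and cord medians from -0.42 to -0.21.

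The count of calls changed when single mice were left out, and with the dye. The median over the members stayed between 0.146 and 0.185 with any 1 mouse left out. Leaving out mouse 6493 left 14 calls, all among the 46, against 2.15% of all probes called higher. Without 6069 there were 20, against 2.83%. Leaving out 5907, 6335 or 5995 left 22 each, against 3.52%, 3.56% and 4.53%. Without 6163 there were 24, against 5.0%, and without 5906 there were 26, against 4.49%. The calls over all probes thus fell together with those of the members. Leaving out 6065 gave 37 calls, of which 32 were among the 46, against 6.19%. Without 5905 there were 50, against 7.6%, and without 5997 there were 51, against 7.43%, and each of these sets held all of the 46. With the mutant RNA in Cy5 the median over the members was 0.26 and was above 0 in 10 of 10 mice. With it in Cy3 the median was 0.10, above 0 in 7 of 10. In Cy5 alone 61 of 106 members were called higher, against 1980 of all 20315 probes, and 1 lower, against 1426. In Cy3 alone 5 members were called higher, against 2.55% of all probes, and 1 lower, against 4.1%, and 3 of these 6 were among the 46.

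Complex I, the entry point for NADH, had 20 of 42 probes called higher (47.6%) and a median of 0.17. Of the 7 probes for its nuclear-encoded core subunits 2 rose, and of the 35 for accessory subunits 18. Ndufv1, the core subunit that binds NADH, had ratios from 0.11 to 0.56 in the 10 testes (median 0.29), with a mean of 0.30 ± 0.15 (SD, n = 10; 1.23-fold, adjusted p = 0.0114). Every mouse was above 0, with 5995 the highest and 5906 the lowest. Ndufs3, another core subunit, rose as well (0.225 ± 0.205, adjusted p = 0.04), while Ndufs7 (-0.01 and 0.05, 2 probes), Ndufs8 (0.08), Ndufv2 (0.14) and Ndufs1 (0.15) did not pass the test.

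Accessory subunits surround that core. Ndufb9 ran from 0.04 to 0.55 over the mice (median 0.32) and averaged 0.32 ± 0.16 (adjusted p = 0.0113). It was above 0 in 10 of 10 mice, lowest in 5997 and 5905, yet averaged 0.60 on the arrays with wr/wr in Cy5 and 0.03 in Cy3. Ndufb8 ran from 0.07 to 0.36 (median 0.25) and averaged 0.23 ± 0.09 (adjusted p = 0.00813). It too was above 0 in every mouse, and in both dyes, at 0.30 in Cy5 and 0.16 in Cy3. A further Ndufb8 probe averaged -0.00 ± 0.32 and did not share this. Ndufs6 averaged 0.30 ± 0.16 on its strongest probe and was called on all 3. Ndufs4, needed for a stable complex, was called on both of its probes (0.24 ± 0.16 and 0.18 ± 0.12). Ndufa2 had the highest mean of all members, 0.35 ± 0.20, and Ndufa9 (0.27 ± 0.18), Ndufb10 (0.22 ± 0.16), Ndufb7 (0.20 ± 0.12) and Ndufa7 (0.16 ± 0.11) rose as well. The other Ndufb10 probe was at -0.005 ± 0.25. Ndufa10 was below 0 on both probes (-0.09 and -0.02), without passing the test.

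Complex II, which also serves the citric acid cycle, had 2 of its 4 probes called. Sdhb, its iron-sulfur subunit, was at 0.11 ± 0.07 (adjusted p = 0.0337) and Sdhc, a membrane anchor, at 0.22 ± 0.21 (adjusted p = 0.0434). Sdhd, the other anchor, had nearly the same mean (0.22 ± 0.23) with an adjusted p of 0.0667, and Sdha, the flavoprotein, varied too much to be read (0.06 ± 0.58, n = 9).

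Complex III, the cytochrome bc1 complex, had the highest share, 7 of 11 probes (63.6%), and a median of 0.21; shares were not tested against each other. Uqcrc1, a core protein, ran from 0.11 to 0.30 over the testes (median 0.17) with a mean of 0.18 ± 0.05 (adjusted p = 0.00812). Its SD over mice was 0.05, beside a median SD of 0.18 over the members, and its adjusted p was the smallest of the set. It averaged 0.285 where wr/wr was in Cy5 and 0.07 in Cy3. Uqcrc2, the second core protein, averaged 0.23 ± 0.15 and was above 0 in 10 of 10 mice. Uqcrq was called on all 3 probes, at 0.24 to 0.25, and Uqcr10 (0.19) and Uqcr11 (0.18) on 1 each. The Rieske protein Uqcrfs1 (0.21 ± 0.66) and Cyc1, the cytochrome c1 (0.32 ± 0.41 and 0.10 ± 0.12), did not pass the test, nor did the hinge protein Uqcrh (0.07 ± 0.12).

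Complex IV, cytochrome c oxidase, had 8 of 23 probes called (34.8%). Cox7a2, the form of subunit VIIa found in most tissues, averaged 0.34 ± 0.21 (adjusted p = 0.0156) and was above 0 in 9 of 10 mice. Cox4i1, a regulatory subunit, ran from 0.05 to 0.56 on its first probe (median 0.24), averaged 0.27 ± 0.17 (adjusted p = 0.0173) and was highest in mice 6493 and 5995. Of its other probes 2 also rose (0.245 and 0.22), and the last was at 0.20 ± 0.50. Cox5a (0.24 ± 0.17), Cox5b (0.21 ± 0.19) and Cox6c (0.18 ± 0.16) were called too. Cox7c ran from -0.23 in mouse 5997 to 0.45 in 5907 (median 0.19), and its mean of 0.16 ± 0.19 missed the threshold (adjusted p = 0.0922).

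The isoforms of complex IV did not move as 1 block. Among those known from muscle, Cox7a1 rose on 1 probe (0.18 ± 0.14, adjusted p = 0.0306) and was at 0.06 on the other, whereas Cox6a2 was at -0.12 ± 0.22 and Cox8b at -0.12 ± 0.11, below 0 in all 10 mice (adjusted p = 0.0608). Among those known from testis, 0 of 3 probes were called: Cox8c was at 0.17 ± 0.25, Cox7b2 at 0.16 ± 0.16 and Cox6b2 at 0.02 ± 0.12. Among widely expressed isoforms, Cox6a1 (-0.03 and -0.02), Cox6b1 (0.13 and 0.13), Cox7b (0.12 and 0.25) and Cox8a (0.115) were not called, whereas Cox7a2 was. Probe sequences were not used here, so whether a probe also binds a sister isoform was not tested.

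Complex V had 9 of 21 probes called (42.9%) and a median of 0.19. In the catalytic F1 head, 4 of 7 probes rose. Atp5b, the catalytic beta subunit, ran from 0.10 to 0.56 (median 0.26) and averaged 0.30 ± 0.15 (adjusted p = 0.0114). It was above 0 in every mouse and in both dyes (0.37 in Cy5 and 0.23 in Cy3), lowest in mouse 5997. The alpha subunit Atp5a1 rose on 2 of 3 probes (0.26 and 0.23, with 0.08 on the last) and the gamma subunit Atp5c1 was at 0.26 ± 0.18, while the delta subunit Atp5d stayed at -0.01 ± 0.11. In the stalks and the membrane part 5 of 14 rose, among them Atp5o on both probes (0.29 and 0.26), Atp5pb (0.26 ± 0.18), 1 of 2 probes of Atp5j2 (0.27 ± 0.25) and Atp5l on 1 of 2 (0.22 and 0.13). Atp5mpl gave 0.27, 0.19 and -0.01 on its 3 probes and Atp5k 0.10, none of them called. Over all complexes, 22 genes had several probes: every probe was called in 4, some in 8 and none in 10.

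**Figure D2:**
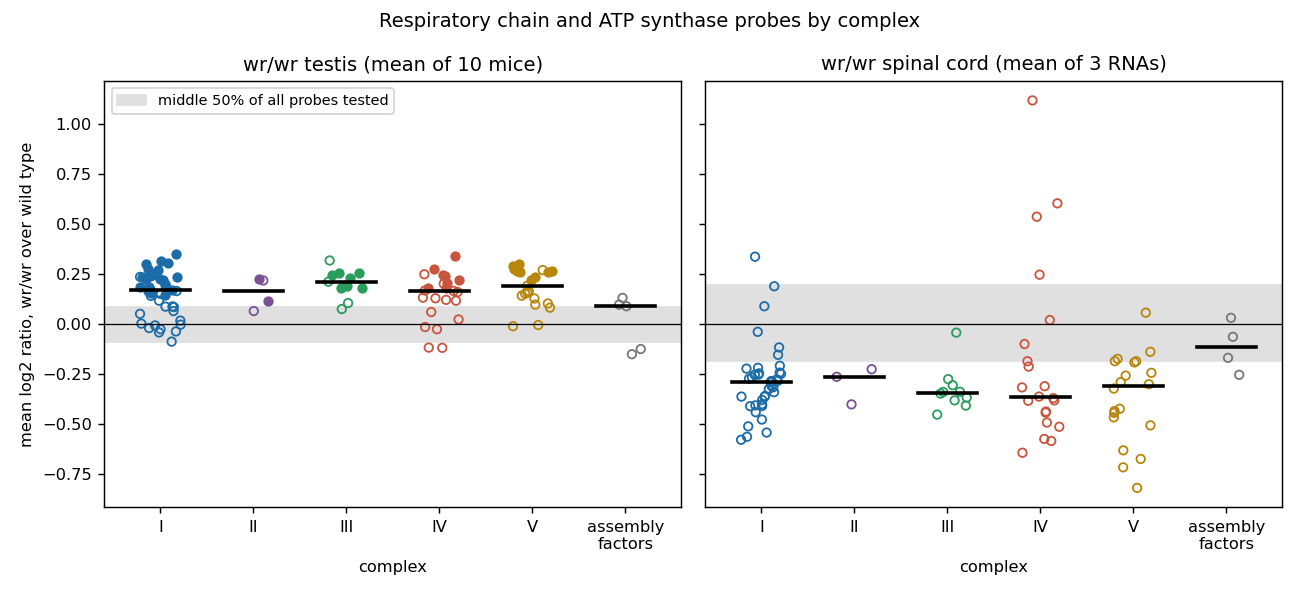
Mean log2 ratio of wr/wr over wild type (vertical axis) of each member probe by complex (horizontal axis), in testis (left, 10 mice) and cord (right, 3 RNAs); filled points have an adjusted p under 0.05, black bars are medians and the grey band spans the quartiles of all probes tested. In testis the medians of complexes I to V lie between 0.16 and 0.21; in cord they lie between -0.37 and -0.27, with no filled point.

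In the wr/wr spinal cord the median over the members was below 0 in every RNA, but no single probe passed the test. Of the 97 members (72 genes) with values in both dyes of all 3 RNAs, 0 were called, as were 0.0% of all 17055 probes; the smallest adjusted p of any probe was 0.542 (limma). At an unadjusted p under 0.05, 36 members were lower (37.1%), against 4.36% of all probes, and 1 was higher, against 4.29%. The median over the members was -0.31 (a ratio of 0.81), beside -0.00 over all probes, and 87 of 97 means were below 0. Below 0 in all 3 RNAs were 77 members (79.4%), against 20.7% of all probes. The per-RNA medians were -0.21 in pool1, -0.32 in pool2 and -0.42 in mouse 5995. The spread of all probes widened in the same order. Their quartiles were -0.163 and 0.149 in pool1, -0.215 and 0.253 in pool2, and -0.338 and 0.344 in mouse 5995.

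These cord values differed by dye. Over all probes with both dyes, the Cy5 and Cy3 means did not correlate positively in any cord RNA. Spearman rho was -0.23 in pool1, -0.02 in pool2 and -0.06 in mouse 5995. With the mutant RNA in Cy5 the median over the members was -0.07, and 1 of the 3 RNAs, pool1, was above 0 (0.08, with -0.16 in pool2 and -0.11 in mouse 5995). With it in Cy3 the median over the same 97 members was -0.55, from -0.68 to -0.48. The ratio was higher in Cy5 than in Cy3 for 84.5% of the members, against 52.6% of all probes, and in testis for 76.4%, against 45.9%. Averaging both orientations removes a constant part of such a gap, but of the 97 members only 21 had 1 sign in both dyes of each RNA, 20 of them below 0.

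**Figure D3:**
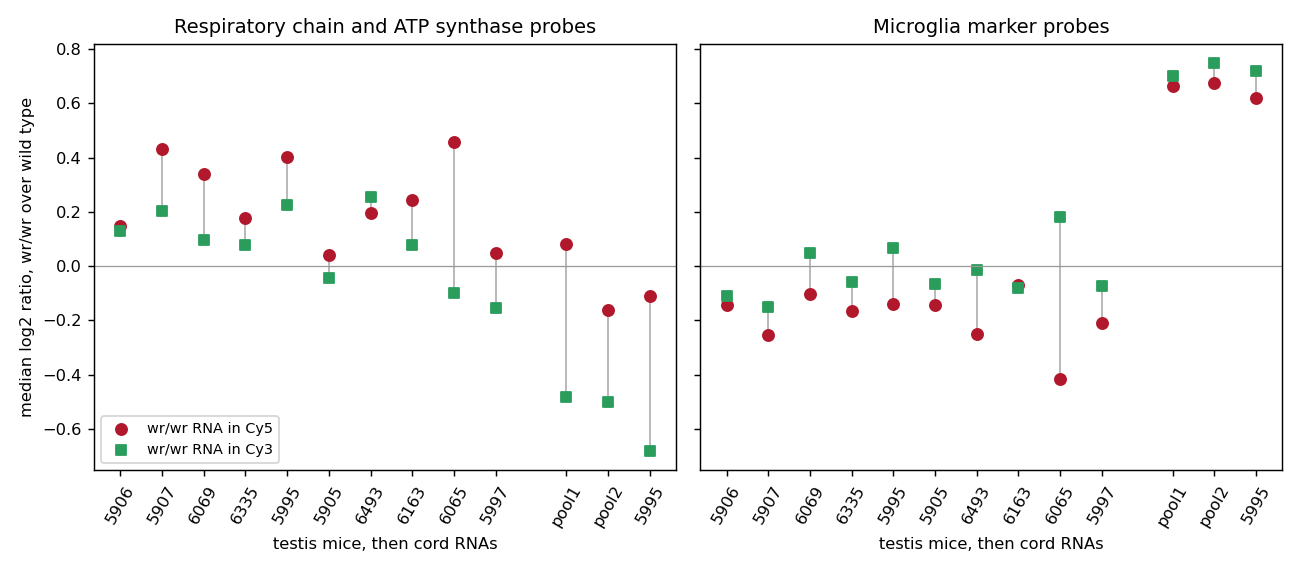
Median log2 ratio of wr/wr over wild type (vertical axis) in each RNA with the wr/wr sample in Cy5 (red circles) and in Cy3 (green squares), for the members (left) and for microglia markers (right). The members' cord medians lie between -0.16 and 0.08 in Cy5 and between -0.68 and -0.48 in Cy3, while the microglia cord medians lie between 0.62 and 0.75 in both.

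Complex by complex the cord medians were close, at -0.29 for complex I, -0.27 for II, -0.35 for III, -0.37 for IV and -0.31 for V, with the 4 assembly factor probes tested at -0.12. Among the probes with 1 sign in both dyes, Atp5mpl and Atp5k, small subunits of complex V, had those furthest below 0. Cox7b and Cox7c of complex IV came next. Atp5mpl had ratios of -0.63, -0.74 and -1.09 in pool1, pool2 and mouse 5995, a mean of -0.82 ± 0.24 (SD, n = 3; unadjusted p = 0.00498, adjusted p = 0.542). Its other probes averaged -0.68 and -0.43. Atp5k, subunit e, was at -0.56, -0.60 and -1.0 in the same RNAs, a mean of -0.72 ± 0.24. Mouse 5995 was the lowest of the 3 for both genes. Atp5d of the F1 head, which had not differed in testis, was at -0.49, -0.54 and -0.50 (mean -0.51 ± 0.03), with little spread between RNAs. Atp5j2, subunit f, averaged -0.47 ± 0.24 on the probe with 1 sign in both dyes and -0.63 on the other.

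In the other complexes Ndufb8 was at -0.45, -0.52 and -0.57 on the probe that had risen in testis (mean -0.51 ± 0.06), and Uqcr11 at -0.40, -0.43 and -0.54 (mean -0.46 ± 0.08). In complex IV, Cox7b averaged -0.65 ± 0.23 on 1 probe and -0.19 ± 0.40 on the other. Cox7c was at -0.25, -0.53 and -0.98 (mean -0.59 ± 0.36), again lowest in mouse 5995. Cox6b1 averaged -0.58 ± 0.13 and -0.49 ± 0.22 on its 2 probes, at -0.01 and -0.07 in Cy5 and -1.14 and -0.92 in Cy3. Among the genes chosen as marks of the set, Atp5b averaged -0.30 ± 0.07, Uqcrc1 -0.34 ± 0.17, Ndufv1 -0.26 ± 0.13 and Ndufb9 -0.24 ± 0.10. Of these, Ndufv1 (0.04) and Ndufb9 (0.23) were above 0 with the mutant RNA in Cy5.

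Positive means in cord were found for 10 probes, 3 of them above 0 in all RNAs. The testis isoform Cox6b2 stood apart at 0.75, 1.96 and 0.64 (mean 1.12 ± 0.74, unadjusted p = 0.0272, adjusted p = 0.542), positive in both dyes of each RNA, and pool2 was the highest. Cox7b2, also known from testis, was at 0.41, -0.19 and 1.39 (mean 0.53 ± 0.80), with -1.06 in Cy5 and 2.12 in Cy3. The muscle isoform Cox6a2 averaged 0.24 ± 0.13, while Cox7a1 was at -0.37 and -0.45 (2 probes) and Cox8b at 0.02. A probe of Cox4i1 averaged 0.60 ± 0.47 against -0.39, -0.32 and -0.21 for the other probes of that gene, with -0.63 in Cy5 and 1.83 in Cy3. Ndufa9 averaged 0.19 ± 0.19, and the other Ndufb8 probe ran from -1.10 to 2.10. The third probe above 0 in all RNAs besides Cox6b2 and Cox6a2 was that of Cox4i1.

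**Figure D4:**
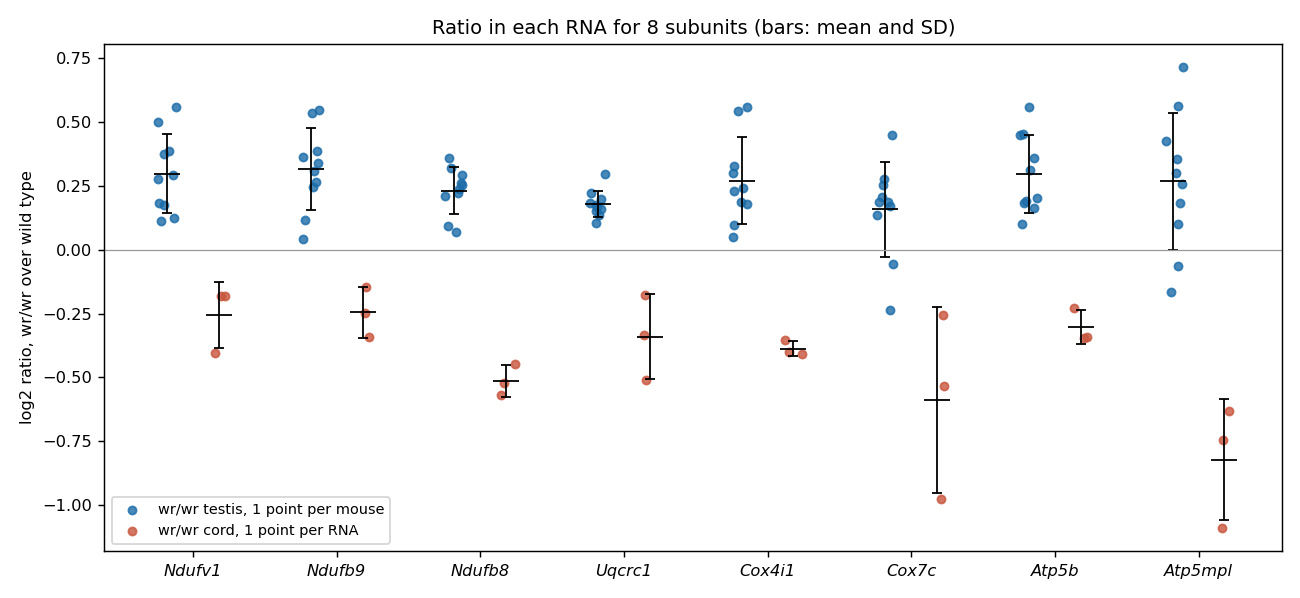
Log2 ratio of wr/wr over wild type (vertical axis) for 8 subunits (horizontal axis), with 1 point per testis mouse in blue and per cord RNA in red; bars give mean and SD. The testis values of Ndufv1, Ndufb9, Ndufb8, Uqcrc1, Cox4i1 and Atp5b are above 0 in all 10 mice and their cord values below 0 in all 3 RNAs, while Cox7c and Atp5mpl have 2 testis mice each below 0.

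The difference between the organs was tested over the 13 RNAs. With 1 spread fitted for both organs, the testis ratio was above the cord ratio for 74 of 97 members (76.3%) and below it for 1, Cox6b2, against 10.8% and 10.4% of all 17005 probes. On simulated data this fit also called many probes that had not been shifted, so its adjusted p-values are too small. The count did not hold when each organ had its own spread, a setting added after seeing the data. The estimated weights were then 1.45 for testis RNAs and 0.291 for cord RNAs, 0 members passed, against 0.0176% of all probes called with a positive and 0.0294% with a negative difference, and the smallest adjusted p of a member was 0.0674. At an unadjusted p under 0.05 that setting left 53 members positive, against 7.56% of all probes. In a fit that matched the cord RNAs to testes of the same animals, 0 members passed, as did 0.0% of all 16983 probes, and the median difference was 0.53. At an unadjusted p under 0.05 that fit had 60 of 97 members, against 12.7% of all probes.

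The median difference, testis minus cord, was 0.49 over the members and -0.00 over all probes. A mean above 0 in testis together with a mean below 0 in cord was found for 76 of 97 members (78.4%), against 28.0% of all probes. By complex this held for 30 of 39 probes of complex I, 3 of 3 of II, 10 of 10 of III, 14 of 21 of IV and 17 of 20 of V. Ndufb8 had the smallest adjusted p (difference 0.74 ± 0.07, SE; adjusted p = 0.000227 with 1 spread, 0.0674 with a spread per organ). Ndufb2 differed by 0.62, Uqcrc1 by 0.52, Cox6b1 by 0.70 and Atp5mpl by 1.09 in the fit with 1 spread, and Cox6b2 by -1.09. Across the 97 probes the testis and cord means correlated weakly (Pearson r -0.22, Spearman rho -0.13), a description of probes that share arrays and dyes.

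**Figure D5:**
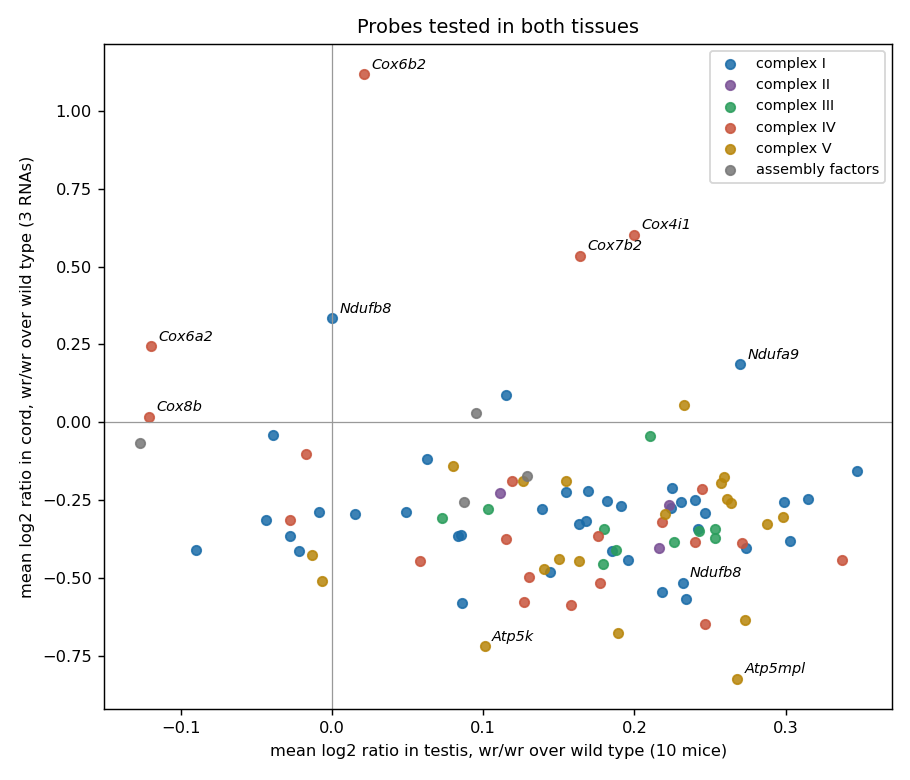
Mean log2 ratio of wr/wr over wild type in testis (horizontal axis, 10 mice) and in cord (vertical axis, 3 RNAs) for the 97 probes tested in both, coloured by complex. The lower right field holds 76 probes, and Cox6b2 stands alone at 1.12 in cord.

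Genes that work beside the complexes were counted from lists. Over all probes, 7.28% were called higher and 5.06% lower in testis. In cord, 4.36% of all probes were lower at an unadjusted p under 0.05 (limma) and 4.29% higher. Of 26 probes of the citric acid cycle and pyruvate dehydrogenase 6 rose and 1 fell in testis (median 0.09). Pdhb led (0.28 ± 0.15 and 0.24 ± 0.17), with its last probe at 0.22 ± 0.37, not called. Suclg1 rose on 1 probe (0.23 ± 0.16), fell by 0.19 on another and was at 0.125 on the last, not called. The cord median of this list was -0.21, with 3 of 24 at an unadjusted p under 0.05, all lower. Of 17 probes for membrane carriers and the ATPase inhibitor 4 rose and 0 fell, with a median of 0.00. They were the porin Vdac3 (0.23 ± 0.12), the prohibitin Phb2 (0.19 ± 0.11) and the inhibitor Atpif1 on both probes (0.24 ± 0.18 and 0.24 ± 0.22). In cord that list had a median of -0.14, with Atpif1 at -0.58 ± 0.36 on 1 probe and -0.405 ± 0.28 on the other. Of 19 probes for assembly factors of the complexes 0 rose and 1 fell, Atpaf2 (-0.18 ± 0.11), which helps to build F1.

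Regulators of mitochondrial biogenesis did not follow the subunits as a list. In testis 3 of 18 probes rose, against 7.28% of all probes. Of these, 2 were of Tfam, which packages mitochondrial DNA and helps to start its transcription (0.35 ± 0.34 and 0.19 ± 0.18). The last was of Yy1 (0.13 ± 0.11, with 0.04 ± 0.105 on its other probe). The list median was 0.02. In cord the median was 0.10, with 1 probe of Nrf1 at 0.37 ± 0.11 (0.18 ± 0.39 on the other) and 1 of the coactivator Ppargc1a at -0.385 ± 0.18 (0.06 ± 0.06 on the other), none called. Of 12 probes for other entry points to ubiquinone and for its synthesis, 0 rose and 1 fell in testis, against 7.28% and 5.06% of all probes. The probe that fell was of Dhodh, an enzyme of pyrimidine synthesis (-0.37 ± 0.35, with 0.04 on the other).

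Markers of cell types were counted beside the members. The shares over all probes were 7.28% called higher and 5.06% lower in testis. In cord they were 4.29% higher and 4.36% lower at an unadjusted p under 0.05 (limma). In testis 5 of 9 Sertoli cell probes rose and 0 fell, with medians per mouse from -0.03 to 0.37. Of 6 Leydig cell probes 3 fell and 0 rose (medians per mouse from -0.42 to -0.01). Of 8 meiotic probes 3 rose and 1 fell (from -0.04 to 0.30), and of 17 probes of elongating spermatids 0 were called (from -0.51 in mouse 5995 to 0.36 in 5907). In cord, microglia medians were 0.67 to 0.75 per RNA and 8 of 9 probes were higher at an unadjusted p under 0.05. Astrocyte medians were 0.07 to 0.43, and oligodendrocyte medians -0.55 to -0.40, with 4 of 6 probes lower. Neuron medians were -0.26 to -0.10, with 2 of 16 lower and 1 higher. By dye, the neuron medians lay between 0.09 and 0.15 with wr/wr in Cy5 and between -0.44 and -0.27 in Cy3. Skeletal muscle medians were -0.30 to -0.24, with 4 of 10 lower. The muscle list holds 3 members (Cox6a2, Cox7a1 and Cox8b), and 2 of its 4 lower probes are those of Cox7a1 itself. Of the motor neuron list only Ache and Prph had a probe (medians from -0.57 to -0.14). The part of these cell types in the members' ratios was not tested.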

How the data were processed

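The values used are the authors' deposited log2 ratios, 1 per probe and array on 50 arrays. Per the labels' protocols, 20 µg of total RNA was reverse transcribed and labelled indirectly with Cy3 or Cy5. How the authors corrected background and normalized is not given in the sources used here, and no scanner intensities were used, so signal over background is unknown and the number of RNAs limits the precision. Genes were named from the platform's annotation table, where 14030 probes have 1 symbol, 5 have several and 6320 have none.

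Each array was centred on its median. Arrays of 1 RNA and dye were averaged, then the Cy5 and Cy3 means, so that each RNA counts once. Probes needed both dyes in 8 of 10 testis mice, or in all 3 cord RNAs. Of the members, 106 were tested in testis and 97 in cord; Ndufs1, Cyc1, Atp5e, Ndufaf1, Cox8c, Cox5b, Sdha and single probes of Ndufs6 and Ndufb10 failed in cord (Cyc1 kept its other probe). Means were tested against 0, and testis minus cord over 13 RNAs, with limma 3.58.1 (lmFit, eBayes) in R 4.3.3 and Benjamini-Hochberg adjustment over all probes at 0.05; the fits were tested on simulated data, where the fit of testis minus cord with 1 spread called unshifted probes far more often than the testis fit did. The table holds 1472 values over 10 in size, 0 of them among the members, which were kept. P-values measure the spread among wr/wr RNAs against 1 wild-type pool.

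The cord RNAs come from the testis mice. This pairing rests on the mouse numbers in the labels: across probes, matched deviations from the organ means had an r of 0.0055 (pool1), 0.0302 (pool2) and -0.0036 (mouse 5995).

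Named probes were the 25 testis calls of smallest adjusted p, the 10 cord probes of largest size with 1 sign in both dyes of each RNA, the 15 smallest adjusted p of the difference, the 5 marks of the set (Ndufb9, Ndufv1, Uqcrc1, Atp5b and Cox7c), every probe of those genes, and the complex IV isoforms. Other subunits are named to complete a complex and were chosen after their values were seen. The members and lists were chosen with earlier results of these data known. Alternatives covered centring, array scaling, single dyes, direction, large values, the filter, averaging probes, a robust prior, each RNA left out and the pairing.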

Additional observations from a re-analysis of the deposited data

Results flagged for a closer look

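In testis, mouse 6069 stood apart for Cox8b (-0.384, while the other 9 mice lay between -0.178 and -0.014) and mouse 6065 for 1 probe of Cox7b (1.211, while the next mouse was at 0.299). Of the 106 members, 7 had such a gap, close to the 1 in 20 or so that chance gives. The share over all probes is not given here, so these values are only listed.

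Between the organs, the test with 1 spread called the testis ratio higher for 74 of 97 members and lower for 1. Over all probes the shares were 10.8% and 10.4%. The 15 probes listed here are the calls of smallest adjusted p, so their passing that test follows from the choice. The differences were 0.745 for Ndufb8, 0.623 for Ndufb2, 0.685 for Ndufs6 and 0.638 for Ndufb7 in complex I. In complex III they were 0.521 for Uqcrc1, 0.61 for Uqcrc2 and 0.634 for Uqcr11. In complex IV they were 0.704 for Cox6b1, 0.657 for Cox4i1, 0.777 for Cox7a2 and 0.541 for Cox7a1. In complex V they were 1.09 for Atp5mpl, 0.502 for Atp5d, 0.601 for Atp5b and 0.821 for Atp5k. That test's adjusted p-values are taken as too small, from the simulated data described above. With a spread for each organ, a setting added after seeing the data, 0 of the 15 passed.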

How the results depend on the processing

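The count of members called in testis, 46, was 6 with the mutant RNA in Cy3 alone (1352 of 20327 over all probes). It was 14 when ratios were read as Cy5 over Cy3 (949 of 20218), and 14 to 51 when 1 mouse was left out. Under the 8 other settings run on it, the count stayed within 1.5 times. Among these was the mutant RNA in Cy5 alone, with 62 calls (3406 of 20315 over all probes). Without the 3 mice whose dye orientations correlate below 0 (5905, 6065 and 5997) there were 60 calls, also within 1.5 times. That setting was added after seeing the data. The testis median kept its sign under every setting run, from 0.074 to 0.261. The median in cord came to -0.074 from the arrays with wr/wr in Cy5, to -0.529 from those in Cy3 (over the 99 and 103 members with values in that dye in every RNA) and 0.236 as Cy5 over Cy3, and -0.377 to -0.277 when 1 RNA was left out. The count that differed between organs, 75, was 16 in Cy5 alone (1604 of 18100 over all probes), 13 as Cy5 over Cy3 (3 higher, 10 lower; 1832 of 17005), 0 with the replicate block that pairs cord RNAs with the testes of their mice and 0 with a spread per organ, and 54 to 76 when 1 RNA was left out; the cause was not tested.

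Read as Cy5 over Cy3, the cord medians of complexes I to V were 0.256, 0.21, 0.293, 0.28 and 0.158, and the median differences between organs -0.175, -0.124, -0.193, -0.153 and -0.09 (-0.153 over all members). Single cord values were -0.558 (Cox6b2), 0.259 (Atp5mpl), 0.151 (Atp5k), 0.225 (Atp5mpl), 0.315 (Cox7b), 0.237 (Cox7c), 0.257 (Ndufb8), 0.247 (Atp5d), 0.079 (Atp5j2), 0.364 (Uqcr11), 0.293 (Ndufv1), 0.124 (Uqcrc1), 0.165 (Atp5b), 0.479 (Ndufb9), 0.203 (Cox4i1), 0.399 (Cox7a1), 0.438 (Cox4i1), -1.229 (Cox4i1), 0.368 (Cox8a), 0.467 (Cox6a1), 0.28 (Cox7a2), -1.59 (Cox7b2), 0.341 (Cox7b), 0.564 (Cox6b1), 0.421 (Cox6b1), 0.33 (Cox4i1), -0.173 (Cox6a2). The differences between organs were then -0.187 (Ndufb8), -0.21 (Ndufb2), -0.018 (Uqcrc1), -0.383 (Cox6b1), -0.207 (Atp5mpl), -0.174 (Ndufs6), -0.143 (Atp5d), -0.248 (Uqcr11), -0.297 (Cox4i1), -0.242 (Ndufb7), -0.096 (Atp5b), -0.022 (Atp5k), -0.153 (Cox7a2), -0.283 (Cox7a1), and testis values 0.128 (Cox6a1), -0.189 (Cox7b2). With the mutant RNA in Cy5 alone, cord values were 0.038 (Ndufv1), 0.234 (Ndufb9), 0.034 (Cox7a1), 0.052 (Cox4i1), -0.627 (Cox4i1), 0.154 (Cox6a1), -1.055 (Cox7b2), 0.01 (Cox4i1) and testis values 0.101 (Cox6a1), -0.025 (Cox7b2). In Cy3 alone, testis values were -0.004 (Ndufa7), -0.017 (Uqcrq), -0.171 (Cox6b2), -0.054 (Cox6b1). With the probes of a gene averaged, Cox4i1 was at -0.08 in cord.

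With 3 cord RNAs and 1 wild-type pool per organ, the number of RNAs limits the precision. Signal levels are not in the table, so a low signal cannot be told from a small difference. Dye and ratio differ together in the members, and the cause was not tested.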
